A study of Oryzias latipes with 6 samples.

Results

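The genes that set and keep the male fate of the gonad, together with the ovarian genes that oppose them, were followed in the testis of medaka (Oryzias latipes), a small laboratory fish. The group was defined by 10 gene names: dmrt1, amh, amhr2, gsdf, sox9, wt1, nr5a1, gata4, foxl2 and rspo1. A row of the deposited expression table counted if its name was one of these, with a final a or b allowed, or if it had an identifier alone and its protein match carried the name. This found 11 of 24365 rows, which cover 8 of the 10 names, all of them by name and 0 by protein match. RNA sequencing was done on 6 libraries, 3 from wild-type fish (labelled WT) and 3 from nphp4 mutants (labelled MUT, nphp4-/- and a knockout in the series design). Each library pooled the testes of 2 fish. The labels used here give no strain, age, lesion or clone. Levels are in FPKM, fragments scaled by gene length and by a library total that the authors set.

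Sertoli cells are the somatic cells of the testis that surround and feed the germ cells. In medaka the male fate starts with dmy, a Y-linked copy of the transcription factor gene dmrt1. It acts early through gsdf, a secreted factor of the TGF-beta family, and dmrt1 later keeps the fate. The hormone Amh and its receptor restrain germ cell number, while foxl2 and rspo1 belong to the ovarian side.

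Some rows did not carry the gene that their name promises. A row named amh (ENSORLG00000015951, chromosome 24, 12981208 to 13000919, minus strand) has the germ granule protein Tdrd6 as its Swiss-Prot match and a Tudor domain. A row named AMH (ENSORLG00000005044, chromosome 4, 7984871 to 7987964, minus strand) shares its chromosome with the single amh gene of RefSeq (assembly ASM223467v1). The chromosome 4 row was therefore read as the hormone. The chromosome 24 row is given as a row of the group but not as the hormone.

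No row was named dmrt1 or amhr2. A row named dmy (ENSORLG00000020817, chromosome 9, 1178416 to 1215444, minus strand) has medaka dmrt1 as its Swiss-Prot match and lies beside dmrt3a and dmrt2a. Of 6 rows annotated with a DM domain, the DNA-binding domain of this family, 0 were among the 1294 rows of chromosome 1, the sex chromosome. Reads of dmrt1 and of the Y-linked copy therefore cannot be told apart in this row. A row named misrii (ENSORLG00000009191, chromosome 7, 14633914 to 14641024, plus strand) carries the synonym AMHRII in RefSeq. The dmy and misrii rows, and zgc:194189 (ENSORLG00000005438, chromosome 7, 10048626 to 10049417), a forkhead gene whose protein match is Foxl2, are described beside the group and were chosen after their values were seen. Coordinates are those of the deposited table, whose build is not given in the sources used here.

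Library depth ranged from 13438879 to 16054354 reads counted on genes. The library total inside the deposited FPKM was 0.883 times the reads on genes in wild type 3 and 1.02 to 1.04 times in the other 5 libraries, so the values of wild type 3 are raised relative to plain read totals. The targeted gene, nphp4 (ENSORLG00000023493), had a wild-type level of 17.6 ± 5.68 FPKM and a mutant level of 8.26 ± 2.32 FPKM (SD, n = 3; log2 difference -0.99, adjusted p = 0.436, limma). Wild type 3 was the least like the rest. Over all genes on the log2 scale, its median correlation with another library was 0.938, and those of the remaining 5 libraries lay between 0.974 and 0.983. The summed level of 6 exocrine pancreas markers was 17157 FPKM in wild type 3 and 259 to 2488 FPKM elsewhere. That of 10 intestine rows was 2668 FPKM in wild type 3, 182 FPKM in mutant 2 and 4.07 to 8.30 FPKM in the others. Among Sertoli markers, of which 13 of 15 names matched, the dmy and misrii rows were not part of the sum. Without the chromosome 24 amh row, 16 rows summed to 1313 to 1432 FPKM in wild type and 1212 to 1496 FPKM in the mutant. gsdf alone made up 61.6% to 72.1% of this sum. Without gsdf, wild-type libraries summed to 402 to 428 FPKM and mutant libraries to 371 to 466 FPKM. The largest row left was clu, named after its values were seen. It ran from 158 to 176 FPKM across wild-type libraries and from 180 to 244 FPKM across mutant libraries, without overlap (log2 difference 0.25, adjusted p = 0.804, limma). cldn11a went the other way, with a mutant mean of 50.9 against 86.4 FPKM and overlapping groups. These rows partly offset each other, so similar sums do not show that single rows were unchanged. Germ cell markers, 8 rows for 8 of 12 names, summed to 788 to 1095 and 922 to 1073 FPKM. Most of this sum was piwil1 and dazl, whose groups overlapped. dmc1, named after its values were seen, was at 155 to 176 FPKM in wild type and 201 to 265 FPKM in the mutant. TEKT1, below 1 FPKM, was also higher in the mutant without overlap, and the other germ cell rows overlapped. Groups without overlap were found for 14.0% of all tested genes. No marker row of the 8 lists was at 0 in all libraries. In bulk tissue, fewer cells of a type and less RNA per cell cannot be told apart.

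The gsdf transcript ranked 88 by mean level among all 24365 genes. Its mean of 926 FPKM over the 6 libraries was 9.35 times that of the next row, amh on chromosome 24 (99.0 FPKM), and the ranges did not overlap. Then came dmy (74.5 FPKM), AMH (43.6 FPKM) and misrii (42.4 FPKM). AMH was above misrii in 3 of 6 libraries, so these neighbours did not differ beyond their spread. The next step was 2.73-fold and without overlap, down to nr5a1 (15.5 FPKM), wt1a (14.1 FPKM), sox9a (9.79 FPKM) and gata4 (7.33 FPKM). Each of these neighbours overlapped in range. One more step without overlap, of 3.08-fold, led to wt1b (2.38 FPKM). Below it lay zgc:194189 (1.98 FPKM), rspo1 (0.801 FPKM), foxl2 (0.167 FPKM) and nr5a1b (0.0662 FPKM), each overlapping its neighbour in range.

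**Figure D1:**
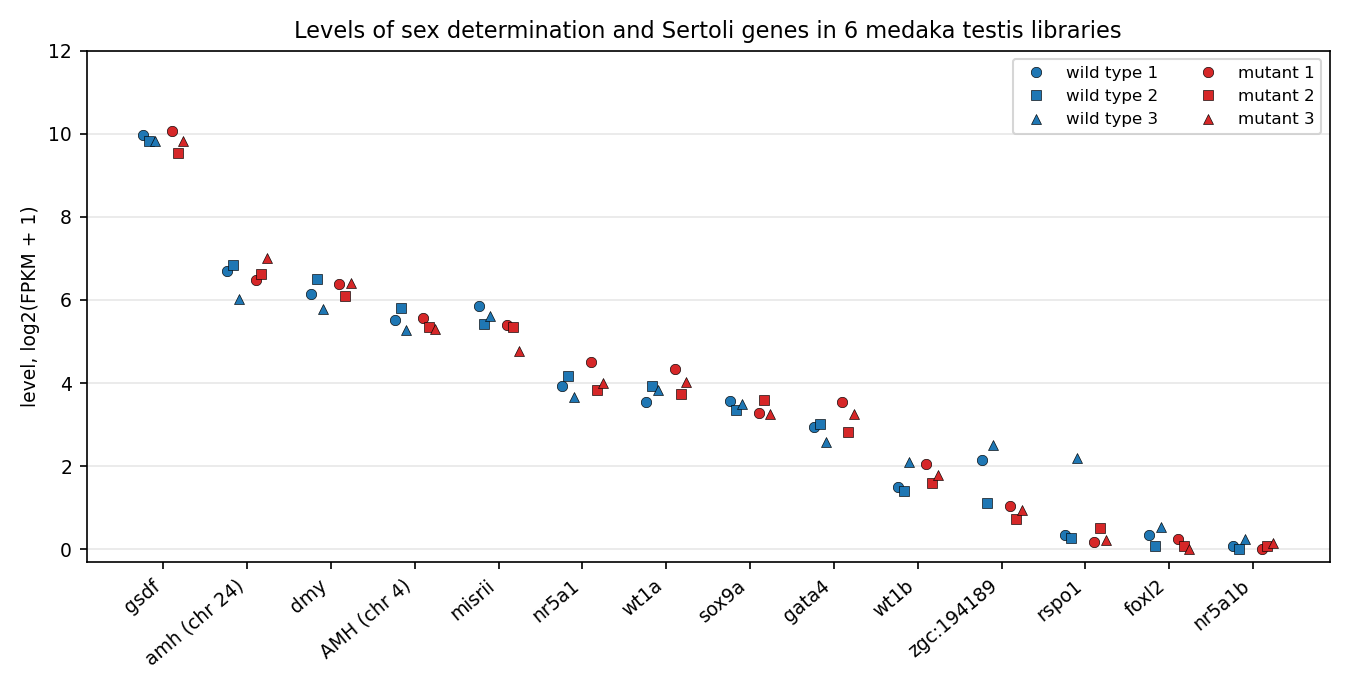
Level of each gene in each library as log2(FPKM + 1), ordered by mean level, with 1 symbol per library (blue wild type, red mutant; shapes are replicate numbers). The gsdf points lie above all others, and wild type 3 is the one library with rspo1 well above 0.

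Mutant and wild-type testis were compared to see whether loss of nphp4 goes with a change in these factors. Of the 11 rows, 9 passed the filter (a group mean of 1 FPKM or more in wild type or mutant), and 0 of the 9 were called by limma at an adjusted p below 0.05, where 0.0592% of all tested genes were called (0.0329% higher and 0.0263% lower in the mutant). At an unadjusted p below 0.05 the count was also 0 of 9, against 7.13% of all tested genes. Log2 differences are of FPKM + 1, mutant minus wild type. Their median was 0.14 over the 9 rows and 0.0075 over the 15203 tested genes, with 5 of 9 and 51.3% positive. The 5 include the chromosome 24 amh row (0.17), which is not the hormone, so this median and count rest partly on it. The median size of a difference, sign ignored, was 0.17 for both the 9 rows and all tested genes. The groups overlapped in all 11 rows, of which foxl2 and nr5a1b were not tested. Groups without overlap were found for 14.0% of all tested genes. With only 9 tested rows, a count of 0 cannot be set apart from that share, so nothing is read from it. The misrii row, described beside the group, had groups without overlap. rspo1 passed the filter only through wild type 3.

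**Figure D2:**
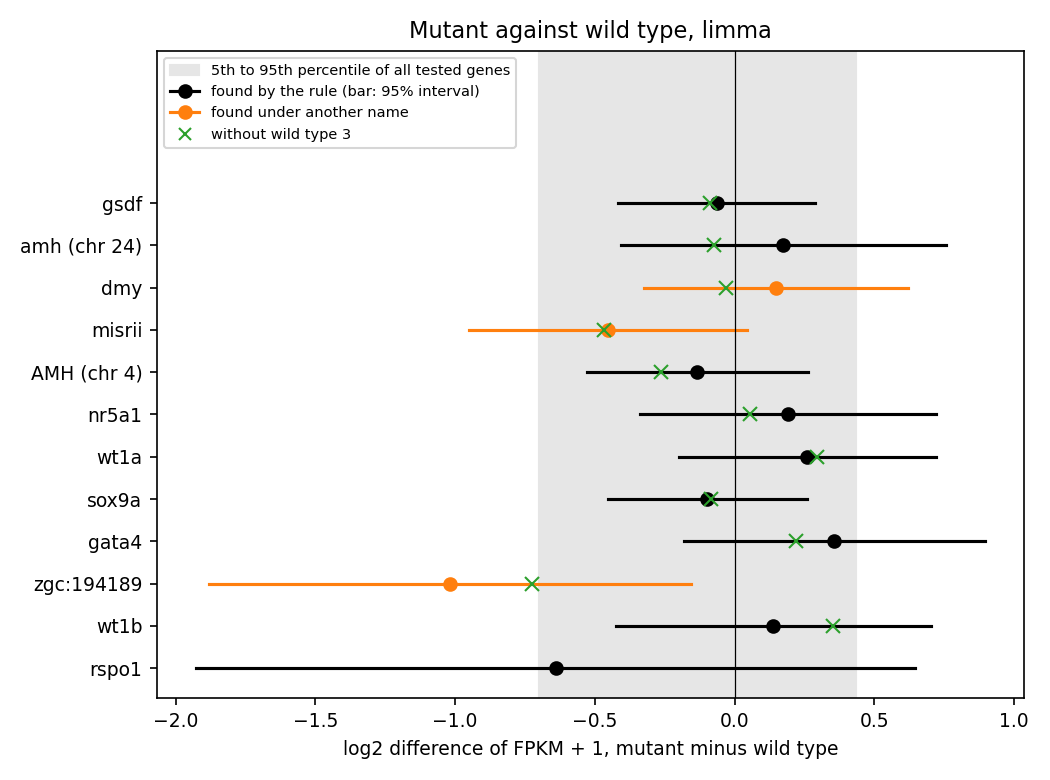
Log2 difference of FPKM + 1, mutant minus wild type, with its 95% interval from limma for each tested gene; crosses give the value without wild type 3, and the grey band spans the 5th to 95th percentile of all tested genes (-0.70 to 0.43). Each interval of a gene found by the rule (black) includes 0.

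The secreted factor gsdf (ENSORLG00000022492, chromosome 12, 10454505 to 10458561, minus strand) was at 1004, 910.4 and 911 FPKM in wild type 1, 2 and 3 and at 1078, 746 and 905 FPKM in mutant 1, 2 and 3. Mutant 1 was the highest and mutant 2 the lowest library, and the groups overlapped. The means were 942 ± 53.9 and 909.9 ± 166 FPKM (SD, n = 3). This gave a log2 difference of -0.064 (SE 0.15, 95% interval -0.42 to 0.29, adjusted p = 0.939, limma), which was 0.070 without mutant 2. The interval leaves room for a mutant level between 0.749 and 1.22 times that of wild type on this scale. An unnamed gene on the same strand, ENSORLG00000023789, shares 3886 bases of span with gsdf, and how reads on shared bases were counted is not given in the sources used here. That gene held 45.9 to 59.2 FPKM in 5 libraries and 16.0 FPKM in mutant 3.

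AMH, the anti-Mullerian hormone, was at 45.1, 54.7 and 37.8 FPKM in the wild-type libraries and at 46.3, 39.5 and 38.4 FPKM in the mutant libraries. Wild type 2 was the highest and wild type 3 the lowest, so the mutant values lay inside the wild-type range. Its log2 difference was -0.13 (SE 0.17, 95% interval -0.53 to 0.26, adjusted p = 0.889, limma). It was -0.26 without wild type 3 and -0.0014 without wild type 2.

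The receptor gene misrii was at 56.9, 42.1 and 47.6 FPKM in wild type and at 41.4, 40.1 and 26.2 FPKM in the mutant. The groups did not overlap, although wild type 2 and mutant 1 lay close together, and mutant 3 was the lowest library. The means were 48.9 ± 7.48 and 35.9 ± 8.43 FPKM (SD, n = 3). The log2 difference of -0.45 (SE 0.21, 95% interval -0.95 to 0.044) had an unadjusted p of 0.0680 and an adjusted p of 0.750 in limma. It was -0.25 without mutant 3. Among all tested genes 6.45% were likewise lower in the mutant without overlap. By a 2-sided exact permutation test p was 0.1, below which 3 against 3 libraries cannot go. The ratio of hormone to receptor level within a library was 0.793, 1.30 and 0.793 in wild type and 1.12, 0.985 and 1.47 in the mutant. These ratios overlapped between the groups (2-sided exact permutation test, p = 0.3; 0.7 when adjusted over 4 ratios tried).

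The row named amh on chromosome 24 was at 103, 114 and 64.1 FPKM in wild type and at 87.8, 97.7 and 127 FPKM in the mutant. Wild type 3 was the lowest and mutant 3 the highest library. The log2 difference was 0.17 (SE 0.25, 95% interval -0.41 to 0.75, adjusted p = 0.902, limma), and it was -0.075 without wild type 3. Its minus-strand span overlaps the end of pla2g7 on the plus strand by 141 bases.

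The transcription factors of the testis came next. The dmy row, in which dmrt1 and its Y-linked copy cannot be told apart, was at 69.7, 89.8 and 54.2 FPKM in wild type and at 82.5, 67.4 and 83.4 FPKM in the mutant. The mutant values all lay between those of wild type 3 and wild type 2. This gave a log2 difference of 0.15 (SE 0.20, 95% interval -0.33 to 0.62, adjusted p = 0.896, limma), which was -0.032 without wild type 3. The ratio of gsdf to this row was 14.4, 10.1 and 16.8 in wild type and 13.1, 11.1 and 10.9 in the mutant, again overlapping (2-sided exact permutation test, p = 0.4; 0.7 when adjusted over the 4 ratios).

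The sox9a row (ENSORLG00000007960, chromosome 8, 10698329 to 10703260) is the only row with a Sox9 protein match. RefSeq lists its gene as sox9 with the synonym sox9b. SOX9 drives Sertoli cell differentiation in mammals, and in medaka the gene is expressed in cells that support the germ line of both sexes. Its level was 10.9, 9.14 and 10.3 FPKM in wild type and 8.78, 11.0 and 8.56 FPKM in the mutant. It varied least of the 9 tested rows, with a within-group SD of 0.15 on the log2 scale, against a median of 0.24 over all tested genes and of 0.31 over the 9 rows. Its log2 difference was -0.098 (SE 0.15, 95% interval -0.45 to 0.26, adjusted p = 0.906, limma), with -0.20 without mutant 2 and -0.038 without mutant 3.

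nr5a1 (ENSORLG00000016486, chromosome 9, 27747380 to 27767198) encodes steroidogenic factor 1, a nuclear receptor of gonadal somatic cells. It was at 14.4, 17.1 and 11.6 FPKM in wild type and at 21.9, 13.2 and 14.9 FPKM in the mutant. Mutant 1 was the highest and wild type 3 the lowest library. The log2 difference was 0.19 (SE 0.22, adjusted p = 0.882, limma), and it was -0.0094 without mutant 1 and 0.057 without wild type 3. Its relative nr5a1b (ENSORLG00000013196, chromosome 12, 24979868 to 24985313) held 2, 0 and 6 reads in wild type and 0, 2 and 4 in the mutant. A count of 0 allows up to 0.0878 FPKM in mutant 1 and 0.0823 FPKM in wild type 2, so no difference was detectable at this depth.

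The zinc finger genes wt1a and wt1b encode Wilms tumour factors, which are needed for the early gonad in mammals. wt1a (ENSORLG00000012424, chromosome 6, 23890121 to 23918816) was at 10.7, 14.1 and 13.3 FPKM in wild type and at 19.2, 12.3 and 15.2 FPKM in the mutant. Mutant 1 was the highest and wild type 1 the lowest. This gave a log2 difference of 0.26 (SE 0.19, 95% interval -0.20 to 0.72, adjusted p = 0.841, limma), which was 0.11 without mutant 1. wt1b (ENSORLG00000009859, chromosome 3, 23303120 to 23311568) was at 1.83, 1.64 and 3.25 FPKM in wild type and at 3.11, 2.01 and 2.43 FPKM in the mutant. By FPKM the highest library of wt1b was wild type 3, with mutant 1 close behind. Each held 149 reads, so the order of these 2 libraries rests on the library totals, which raise wild type 3. Its log2 difference was 0.14 (adjusted p = 0.914, limma), 0.35 without wild type 3 and 0.0079 without wild type 2.

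gata4 (ENSORLG00000017374, chromosome 24, 16926199 to 16932314) encodes a GATA factor of gonadal soma, heart and gut. It was at 6.69, 7.13 and 4.94 FPKM in wild type and at 10.7, 6.02 and 8.49 FPKM in the mutant. 2 of 3 mutant libraries were above the wild-type mean of 6.26 ± 1.16 FPKM, and mutant 2 was below it. Of the rows found by the rule that had a higher mutant mean, it had the largest log2 difference, 0.36 (SE 0.23, 95% interval -0.18 to 0.89, unadjusted p = 0.161, adjusted p = 0.818, limma). The difference was 0.18 without mutant 1, 0.55 without mutant 2 (unadjusted p = 0.0400) and 0.22 without wild type 3. Only 773 reads fell on this gene in all 6 libraries.

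The libraries with the highest and lowest value of each gene were also counted. Over the 9 rows with a mean of at least 5 FPKM (gsdf, both amh rows, dmy, misrii, nr5a1, wt1a, sox9a and gata4), wild type 3 was the lowest library in 5 and the highest in 0. Mutant 1 was the highest in 4 (gsdf, nr5a1, wt1a and gata4) and the lowest in 0. Over these 9 rows the highest library exceeded the lowest by 1.28-fold for sox9a up to 2.18-fold for misrii. By FPKM, each row below 5 FPKM was highest in wild type 3. These were zgc:194189 (4.70 FPKM), rspo1 (3.61 FPKM), wt1b (3.25 FPKM), foxl2 (0.441 FPKM) and nr5a1b (0.183 FPKM). Wild type 3 held only 7 reads of foxl2 and 6 of nr5a1b, and for wt1b 149 reads, as many as mutant 1. The library total also raises the values of wild type 3, so no trend with level is read from these rows. How often each library is the extreme over all genes was not counted, so nothing particular to these genes is read from the counts. Smooth muscle markers (acta2, tagln, cnn1b and both myh11 rows) also varied between libraries. Their sum was 280.4, 400 and 1278 FPKM in wild type 1, 2 and 3 and 974, 596 and 619 FPKM in mutant 1, 2 and 3. Every mutant was thus above wild type 1 and 2 and below wild type 3. The part of the smooth muscle, pancreas and intestine markers in the levels of the sex genes was not tested.

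**Figure D3:**
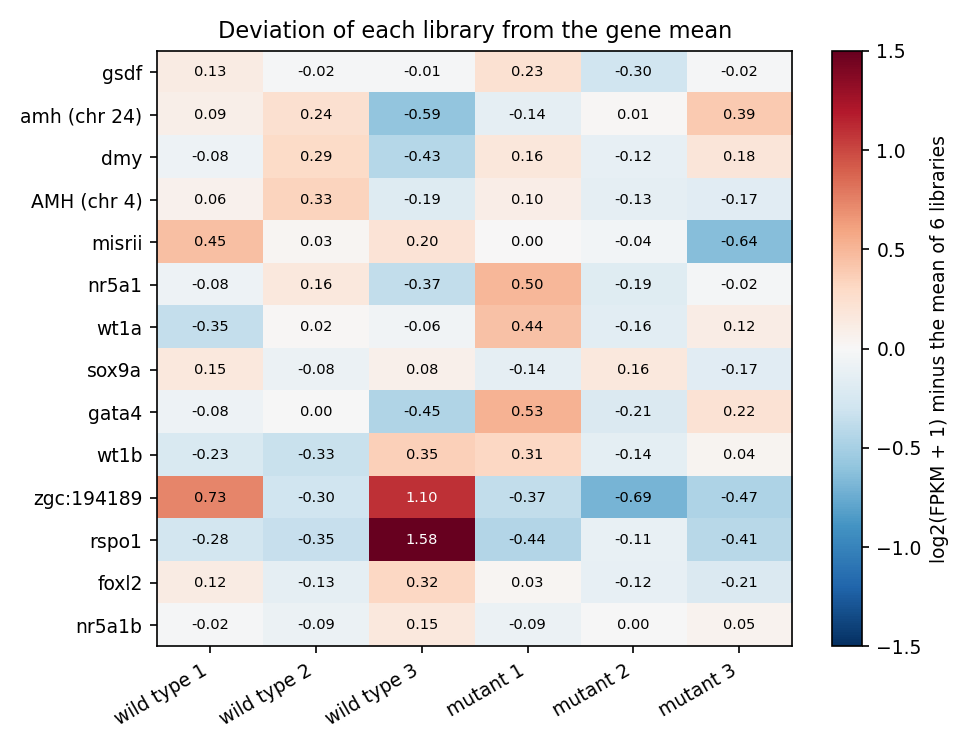
Deviation of each library from the mean of the 6 libraries for each gene, in log2(FPKM + 1) units; red is above and blue below the mean. In the wild type 3 column rspo1 stands at 1.58 and gata4 at -0.45, and in the mutant 1 column gata4 stands at 0.53 and nr5a1 at 0.50.

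On the ovarian side, foxl2 (ENSORLG00000020203, chromosome 13, 31814610 to 31815767) encodes the forkhead factor of granulosa cells. It held 5, 1 and 7 reads in the wild-type libraries and 3, 1 and 0 in the mutant libraries. Summed over a group, these are 13 and 4 reads, a ratio of mutant to wild type of 0.316 with a 95% interval of 0.0752 to 1.02 (Clopper-Pearson, counting error only). A count of 0 in mutant 3 allows up to 0.158 FPKM. foxl2 did not pass the filter and was not tested, and no difference was detectable at this depth. The related forkhead row zgc:194189 was at 3.41, 1.16 and 4.70 FPKM in wild type and at 1.06, 0.647 and 0.926 FPKM in the mutant. No mutant value reached the lowest wild-type value, though wild type 2 was close to mutant 1. Of all tested genes 6.45% were likewise lower in the mutant without overlap. The log2 difference of zgc:194189, -1.02 (SE 0.36, 95% interval -1.88 to -0.16), had an unadjusted p of 0.0267 and an adjusted p of 0.605 in limma. It did not pass the threshold, and the gene reached the filter only through wild type, where it is high. The difference was -0.72 without wild type 3.

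rspo1 (ENSORLG00000014653, chromosome 16, 23660934 to 23674339) encodes R-spondin 1, a secreted activator of Wnt signalling that promotes ovarian fate. It was at 0.271, 0.211 and 3.61 FPKM in wild type and at 0.135, 0.425 and 0.158 FPKM in the mutant. Wild type 3 alone held 153 of its 209 reads, and the other 5 libraries held 6 to 18 each. Its log2 difference was -0.64 (SE 0.54, 95% interval -1.93 to 0.64, adjusted p = 0.856, limma). Without wild type 3 the gene did not reach the filter. The wild-type mean of the remaining pair was then 0.241 FPKM, against 0.239 ± 0.161 FPKM in the mutant (SD, n = 3).

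rspo2 and rspo3, which encode other R-spondins, were chosen after their values were seen. rspo3 was at 7.97 FPKM in wild type 3 and at 1.13 to 1.47 FPKM in the other 5, whereas rspo2 was at 0.160 to 0.593 FPKM in all 6. The intestine and pancreas markers given above were highest in the same library, and their part in the R-spondin levels was not tested. lgr5, a receptor for R-spondins, was at 2.33, 2.40 and 3.45 FPKM in wild type and at 1.47, 1.36 and 1.53 FPKM in the mutant (log2 difference -0.59, adjusted p = 0.521, limma). Its groups did not overlap, and 6.45% of all tested genes were likewise lower in the mutant without overlap. The related receptor genes lgr4 and lgr6 went the other way, with overlapping groups (log2 differences 0.24 and 0.29). These receptor genes were chosen after their values were seen.

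**Figure D4:**
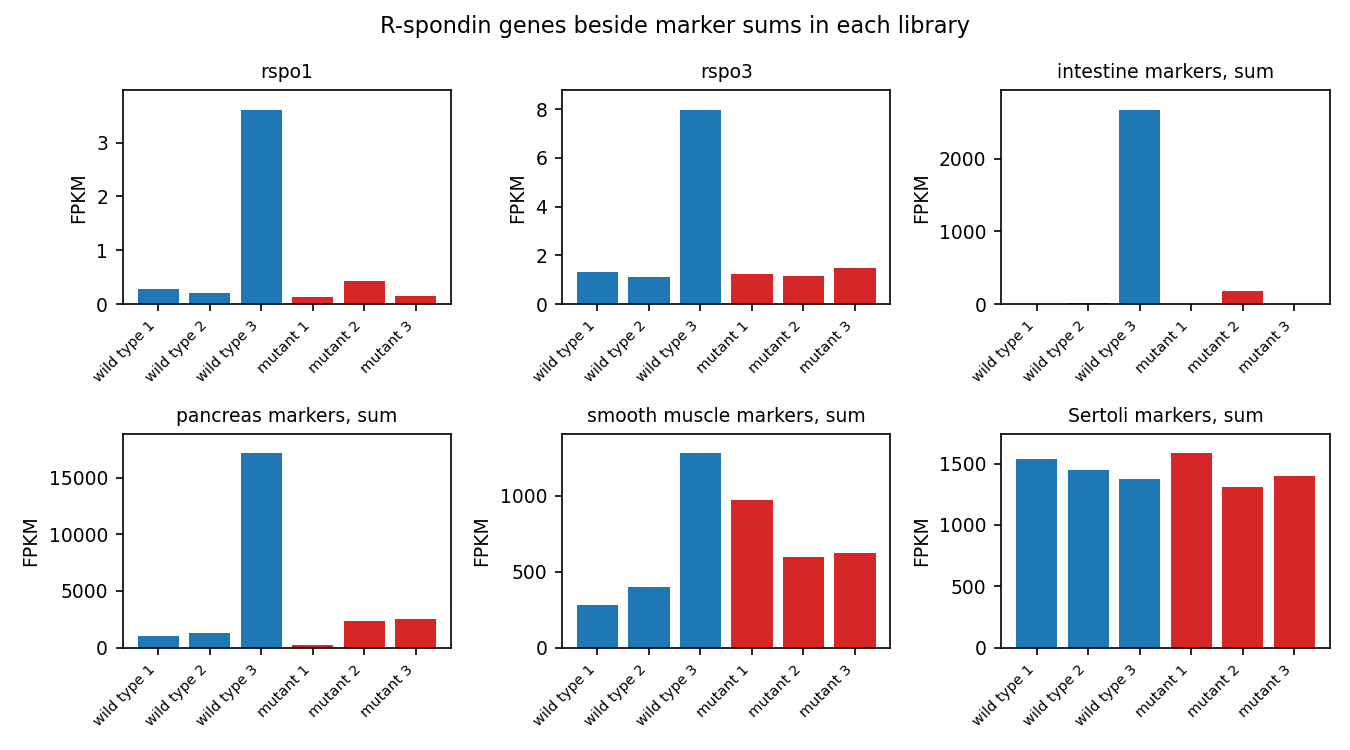
FPKM of rspo1 and rspo3 and the summed FPKM of 4 marker lists in each library (blue wild type, red mutant; linear axes from 0). Wild type 3 holds the highest bar for both R-spondin genes and for the intestine, pancreas and smooth muscle markers, while the Sertoli sum, drawn here with the chromosome 24 amh row and made up mostly of gsdf, lies between 1310 and 1584 FPKM.

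The wider pathway was read from 5 lists, of which the Amh, ovary and R-spondin lists also hold rows described above. In none of the 5 was a gene called by limma over all genes, where 0.0592% of all tested genes were called. An unadjusted p below 0.05 was found for 7.13% of all tested genes. Groups without overlap were found for 14.0%, and for 6.45% with the mutant lower. Among 37 rows of upstream and partner factors of the male pathway, 22 were tested, 6 with a positive and 16 with a negative difference (median -0.080), and 1 had an unadjusted p below 0.05. That gene was lhx2b, a LIM homeobox factor, with means of 1.95 ± 0.276 and 1.04 ± 0.154 FPKM, wild type first (SD, n = 3; log2 difference -0.53, adjusted p = 0.604, limma). Second by p was ptgdsa, a prostaglandin D synthase, at 4.73 ± 0.309 and 3.71 ± 0.376 FPKM (log2 difference -0.28, adjusted p = 0.770, limma). Both had groups without overlap, and 4 of the 22 tested rows did. The remaining rows were nr5a2, lower in the mutant (log2 difference -0.34, adjusted p = 0.829, limma), and cbx2, higher (0.40, adjusted p = 0.810, limma). nr5a2 and cbx2 were named after their values were seen. In this list arx, nr5a2 and nr5a5 reached the filter only through wild type and PTCH1 only through the mutant. Nothing is therefore read from its balance of signs.

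Of 21 rows of Sertoli support and junction genes, 17 were tested, 8 with a positive and 9 with a negative difference (median -0.052). Because cldn11b and oclnb reached the filter only through wild type, nothing is read from this balance. Of the 17, 2 had an unadjusted p below 0.05, against 7.13% of all tested genes, and nothing is read from this count. cldn11a, a claudin of the type that seals Sertoli cell junctions in mammals, was at 99.0, 97.3 and 62.8 FPKM in wild type and at 45.7, 68.4 and 38.5 FPKM in the mutant. Mutant 2 was above wild type 3, so the groups overlapped. The difference was -0.76 on the log2 scale (SE 0.26, adjusted p = 0.577, limma). tgfb3, a growth factor of the TGF-beta family, had a log2 difference of -0.56 (SE 0.23, adjusted p = 0.683, limma). It was at 5.83, 5.17 and 8.44 FPKM in wild type and at 5.19, 3.10 and 3.89 FPKM in the mutant, so the groups overlapped. Another tgfb3 row on chromosome 24 was at 1.38, 1.16 and 1.40 FPKM in wild type. In the mutant that row was at 3.35, 1.11 and 1.71 FPKM. The follicle-stimulating hormone receptor gene fshr, which was named after its values were seen, averaged 31.0 ± 1.35 FPKM in wild type against 34.4 ± 3.38 FPKM in mutants (SD, n = 3; adjusted p = 0.859, limma).

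Of 24 rows of Amh and BMP type signalling, 22 were tested, 15 with a positive and 7 with a negative difference (median 0.094), and 14 and 7 (median 0.075) without the chromosome 24 amh row, which is not the hormone. Of the 22, 0 had an unadjusted p below 0.05. The 2 with the smallest p were bmp2b, a BMP ligand that reached the filter only through the mutant (log2 difference 0.52, adjusted p = 0.780, limma), and acvr2ba, a type 2 activin receptor (log2 difference 0.36, adjusted p = 0.795, limma). Only 8 of 20 ovary pathway rows were tested, 4 with a positive and 4 with a negative difference (median 0.059). An unadjusted p below 0.05 was found for btg4, lhx8, figla and an esr2 row. btg4 and lhx8, with rspo1 and nobox, reached the filter only through the group where they are high, so nothing is read from this count. btg4, an oocyte gene, averaged 0.584 ± 0.471 FPKM in wild type against 3.19 ± 1.39 FPKM in mutants (SD, n = 3; log2 difference 1.39, adjusted p = 0.340, limma). lhx8, an oocyte homeobox gene, averaged 1.81 ± 0.203 and 0.700 ± 0.0958 FPKM (SD, n = 3; log2 difference -0.72, adjusted p = 0.436, limma). The figla and esr2 rows, described after their values were seen, reached the filter in both groups. figla averaged 3.69 and 2.42 FPKM, wild type first (log2 difference -0.47, adjusted p = 0.657, limma). The esr2 row on chromosome 22 averaged 5.95 and 8.99 FPKM (0.52, adjusted p = 0.684, limma). Another esr2 row, on chromosome 24, averaged 8.51 and 12.4 FPKM (0.46, adjusted p = 0.770, limma). cyp19a1, the gonadal aromatase gene that makes oestrogen, which was chosen after its values were seen, was at 0.0655 to 0.214 FPKM in all 6 libraries.

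Of 34 rows at the R-spondin and Wnt receptor level, 27 were tested, 12 with a positive and 15 with a negative difference (median -0.018). AXIN2, dkk3a and rspo1 reached the filter only through wild type and RNF43 only through the mutant. Nothing is therefore read from this balance of signs. Of the 27, 4 had an unadjusted p below 0.05, against 7.13% of all tested genes. These 4 include dkk3a, and the list was chosen with earlier results known, so nothing is read from this count. dkk3a, a secreted protein of the Dickkopf family, was at 4.24, 0.994 and 2.74 FPKM in wild type and at 0.0624, 0.261 and 0.327 FPKM in the mutant. It reached the filter only through wild type, where it is high. All mutant libraries were below all wild-type libraries, as for 6.45% of all tested genes. The log2 difference of dkk3a was -1.49 (SE 0.38, adjusted p = 0.381, limma). sfrp2, a secreted Wnt-binding protein, averaged 2.86 ± 0.607 FPKM in wild type against 4.99 ± 1.06 FPKM in mutants (SD, n = 3; log2 difference 0.63, adjusted p = 0.511, limma).

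**Figure D5:**
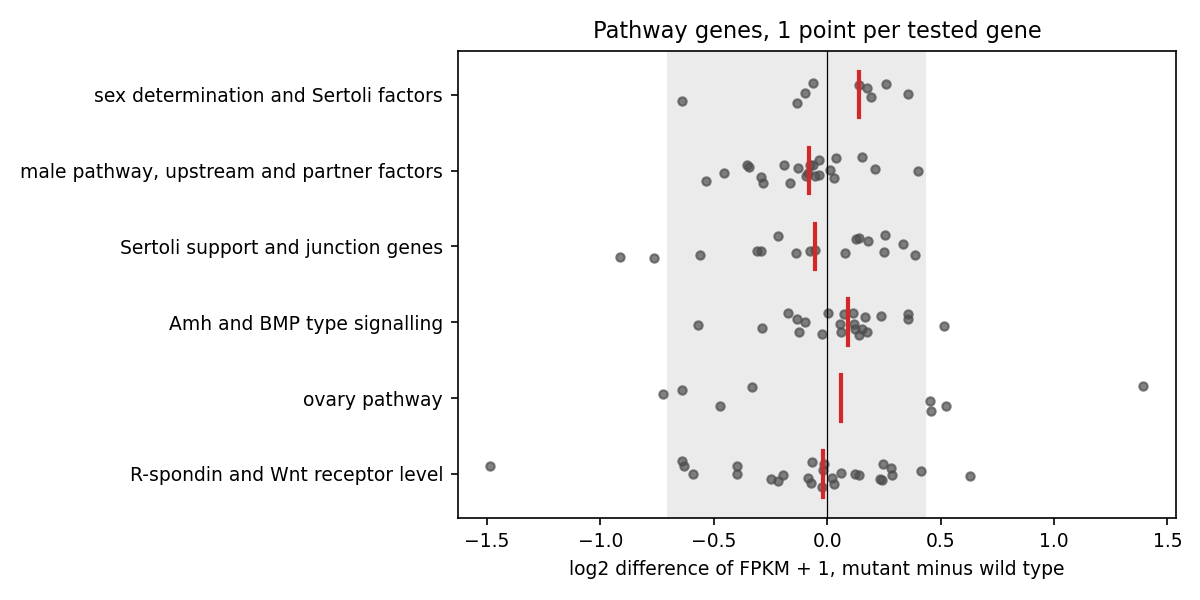
Log2 difference of FPKM + 1, mutant minus wild type, of each tested gene (grey points, jittered vertically) in the sex determination group and 5 pathway lists; red bars are list medians and the band spans the 5th to 95th percentile of all tested genes. The medians lie between -0.080 and 0.14.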

How the data were processed

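Testis RNA was extracted in TRIzol and sequenced, per the labels' protocols. Values were deposited by the authors as FPKM, 1 for each gene in each library, beside gene length in bases. The aligner HISAT2 2.0.5 and the counter featureCounts 1.5.0-p3 are listed in the submitters' processing notes without their settings, as are fastp, CASAVA 1.8 and DESeq2 1.20.0. Genome build, annotation and strand setting are not given in the sources used here. Multiplied by gene length, 100% of values above 0 were whole multiples of 1 read within 0.01 read, and reads were recovered this way.

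The mutant was set against wild type by limma 3.58.1 (R 4.3.3), fitted to log2(FPKM + 1) with trended, robust moderation and no covariate. This covered the 15203 genes whose wild-type or mutant mean reached 1 FPKM, with p-values adjusted over all of them (Benjamini-Hochberg) and a threshold of 0.05. SE is the moderated standard error. The log2 scale with a pseudocount of 1 understates changes of low genes. Floors are 3 reads, and floors and intervals cover counting error only. The fit was also run on simulated data, which held no outlier library such as wild type 3, so nothing is read from that run. Symbols came from the table and, for 682 rows named by an identifier, from RefSeq (ASM223467v1).

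Members and lists were chosen with earlier results of these data known. Named genes were all members, nphp4, genes overlapping a member, and in each pathway list any called gene and the 2 with the smallest p; other genes were chosen after their values were seen, as said beside them. Same-numbered libraries varied together in pair 1 but not in pairs 2 and 3, so numbers were not used as pairs. The series design describes biological replicates, so p-values rest on the spread between pools. Alternatives covered pseudocount, filters, scaling, limma-voom, moderation, a replicate block and each library left out.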

Additional observations from a re-analysis of the deposited data

How the results depend on the processing

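0 of the tested rows of the group were called under any of the 14 alternatives fitted. At an unadjusted p below 0.05 the count was 0 in all but one, and 1 (gata4) without mutant 2. Over 12 tested rows (those found by the rule, dmy, misrii and zgc:194189), 162 of 166 alternative values kept their sign. Fits that changed only the filter or the moderation, or added the replicate block, return the log2 difference of the main fit. Such fits could not change a sign, so nothing is read from this tally. The 4 values that changed sign came from leaving out 1 library: over these fits gsdf ranged from -0.19 to 0.070, amh on chromosome 24 from -0.075 to 0.34, nr5a1 from -0.0094 to 0.33 and dmy from -0.032 to 0.33. rspo1 could not be tested without wild type 3 or with a mean of at least 1 FPKM over 6 libraries. Its log2 difference was -1.25 with a pseudocount of 0.1 and -1.39 in limma-voom. nphp4 kept its sign in all 14 (-1.22 to -0.77) and was not called. The 9 calls over all genes became 14 with library totals, 5 at an adjusted p below 0.01, 0 in limma-voom (1050 at an unadjusted p below 0.05) and 2 to 18 with 1 library left out (18 without wild type 3, 4 without wild type 1, 3 without mutant 1 and 2 without mutant 2 or mutant 3); the cause was not tested, except that a stricter threshold keeps fewer. With the replicate number as a block, 6 genes were called, 4 of them shared; same-numbered libraries deviated with correlations of 0.31, -0.56 and -0.42, so the numbers do not show pairing. The planned negative binomial count tests were not run, because the deposited values are FPKM. Depth limits foxl2 (17 reads in all) and nr5a1b (14 reads).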

Other observations

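Genes of the Leydig and steroidogenic marker list were present beside the Sertoli factors. star, which brings cholesterol into mitochondria for steroid synthesis, was at 11.0, 28.9 and 16.5 FPKM in wild type and at 27.6, 58.1 and 17.5 FPKM in the mutant (log2 difference 0.77, adjusted p = 0.825, limma). hsd3b1, a steroid dehydrogenase gene, was at 20.9, 23.9 and 21.9 FPKM in wild type and at 31.2, 20.2 and 23.9 FPKM in the mutant (adjusted p = 0.884, limma). Of 8 Leydig marker names only 3 matched a row. The remaining matched row, lhcgr, was at 2.38, 1.05 and 1.66 FPKM in wild type and at 2.77, 1.44 and 1.05 FPKM in the mutant. These genes were chosen after their values were seen.

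The other DM domain genes, also chosen after their values were seen, were below the dmy row in all 6 libraries. dmrt3a was at 3.15 to 6.40 FPKM, dmrt2a at 3.06 to 4.31 FPKM and DMRTA1 at 2.26 to 5.33 FPKM over the 6 libraries. dmrt2b was at 0.0102 to 0.197 FPKM and dmrta2 at 0.0198 to 0.0442 FPKM.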
